A study of Caenorhabditis elegans with 9 samples.

Results

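The major sperm protein (MSP) genes and the SSP genes of Caenorhabditis elegans were followed through 42 probe sets of an Affymetrix C. elegans array, chosen because at least 1 gene symbol in the platform annotation starts with msp- or ssp-. These are 42 of the 22548 probe sets that are not controls, 32 naming MSP genes and 10 naming SSP genes. Whole animals labelled as young adults were profiled on 9 arrays, 3 for each of 3 strains. N2 is the standard wild-type strain. Strain MT14769 carries the alleles prg-1(n4357) and prg-2(n4358), and strain SX9 carries prg-1(n4503) and prg-2(nDf57); these double mutants are called n4357 n4358 and n4503 nDf57 here. Each mutant genotype is represented by 1 strain, every array held RNA pooled from many animals, and no further allele or treatment is labelled. The comparison asks how messenger RNA differs between wild type and animals without these Piwi-class Argonautes, and whether both double mutants differ alike.

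MSPs are small, nearly identical cytoplasmic proteins made in large amount by developing sperm. They assemble into the filaments that drive the crawling of nematode sperm, and MSP released by sperm tells oocytes to mature and gonadal sheath cells to contract. The SSP genes encode short sperm-specific proteins related to the MSP domain. In hermaphrodites both families are transcribed while sperm are being made at the end of larval life, before the germline turns to making oocytes. In bulk RNA, fewer cells making sperm and less RNA per such cell cannot be told apart.

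Most of these probe sets cannot be tied to a single gene. Names ending in _x_at or _s_at, which mark probe sets able to detect several related transcripts, belong to 31 of the 32 MSP probe sets and to 6 of the 10 SSP probe sets; these 37 are called shared. The other 5 are msp-32 (189621_at), ssp-16, ssp-19, ssp-34 and ssp-35. In the annotation 32 members name 1 gene and 10 name several, up to the 17 symbols of 171867_x_at, of which 14 are MSP genes. The members name 44 genes, 32 MSP and 12 SSP, all of which matched the RefSeq gene table (assembly WBcel235). That table places 13 of the MSP genes on chromosome II and 19 on chromosome IV, with the SSP genes on I (4), IV (6) and V (2). Of 31 protein-coding MSP genes, 28 share a length of 384 bases in the table. Another 4 genes of the table, msp-37, msp-42, msp-71 and ssp-28, have no member. Among protein-coding genes, 8 pairs of member genes are direct neighbours, among them msp-33 and msp-32, msp-31 and msp-152, and ssp-36 and msp-79.

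Array medians over all probe sets ran from 4.76 to 4.83 on the log2 scale, as RMA sets them to 1 scale. The probe set of prg-1, the Argonaute partner of piRNAs, read 5.40 to 6.93 on wild-type arrays, 5.47 to 7.94 on n4357 n4358 arrays and 6.72 to 7.50 on n4503 nDf57 arrays. That of its relative prg-2 read 6.0 to 6.53, 5.46 to 6.10 and 5.87 to 6.27 in the same order. Where these probes lie relative to the deleted sequence was not analysed here, so the values check no label. Arrays within a group also differed in genes of the moult. The mean deviation of 49 moulting probe sets (29 genes) from their 9-array means was 0.24, -0.28 and 0.19 on wild-type arrays, 0.38, 0.13 and -0.58 on n4357 n4358 arrays, and -0.53, 0.27 and 0.19 on n4503 nDf57 arrays. The lowest array of each group was thus replicate 2 for wild type, replicate 3 for n4357 n4358 and replicate 1 for n4503 nDf57. The labels do not say whether arrays of a group came from separate cultures, so the p-values here measure the spread between arrays, which may be technical.

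The MSP probe sets gave nearly 1 shared profile over the 9 arrays, with very large differences between arrays of the same strain. The median level of the 31 shared MSP probe sets was 9.87, 10.57 and 9.28 log2 on the wild-type arrays, 9.67, 6.45 and 10.09 on the n4357 n4358 arrays, and 9.53, 8.06 and 7.41 on the n4503 nDf57 arrays. The low arrays were n4357 n4358 replicate 2 and n4503 nDf57 replicates 2 and 3, while the medians of the other mutant arrays lay inside the wild-type range. The 10 SSP probe sets followed with smaller steps, at 5.09, 5.52 and 5.29, then 5.10, 4.66 and 5.72, then 5.30, 4.72 and 4.51.

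**Figure D1:**
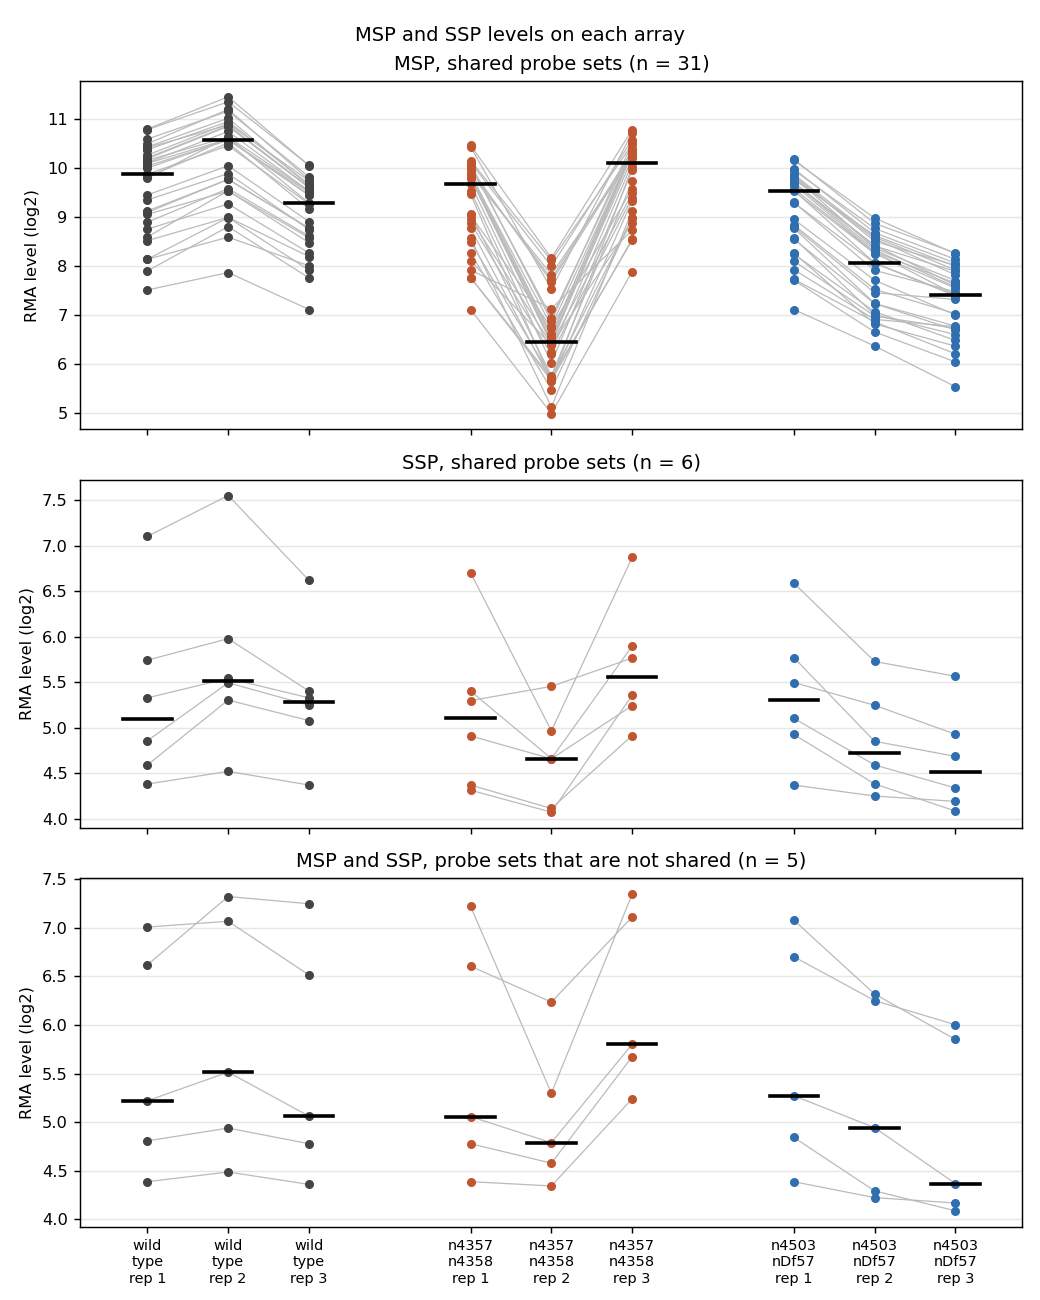
RMA level (log2) of every MSP and SSP probe set on each of the 9 arrays; each point is a probe set, grey lines join its values within a group, and black bars are medians. The shared MSP median drops to 6.45 on n4357 n4358 replicate 2 and to 8.06 and 7.41 on n4503 nDf57 replicates 2 and 3, against 9.28 to 10.57 on the wild-type arrays.

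Relative to each probe set's wild-type mean, the shared MSP probe sets had a median of -3.21 log2 on n4357 n4358 replicate 2, a 9.22-fold lower level, with a range from -4.25 to -1.22. On that array 31 of 31 lay below all 3 wild-type arrays, as did 19.3% of all 22548 probe sets. On n4503 nDf57 replicate 2 the median was -1.78 (3.43-fold lower) and again 31 of 31 lay below wild type, against 20.6% of all probe sets. On n4503 nDf57 replicate 3 it was -2.40 (5.28-fold lower) with 31 of 31 below, against 29.1%. The remaining mutant arrays gave another picture. n4357 n4358 replicate 1 had a median of -0.31 with 4 of 31 below all wild-type arrays (27.5% of all probe sets), and n4503 nDf57 replicate 1 had -0.48 with 7 of 31 below (22.9%). n4357 n4358 replicate 3 had a median of 0.20, with 0 of 31 below all wild-type arrays (33.2% of all probe sets). The mutant strains were therefore each split, with 1 low array of 3 on n4357 n4358 arrays and 2 of 3 on n4503 nDf57 arrays.

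**Figure D2:**
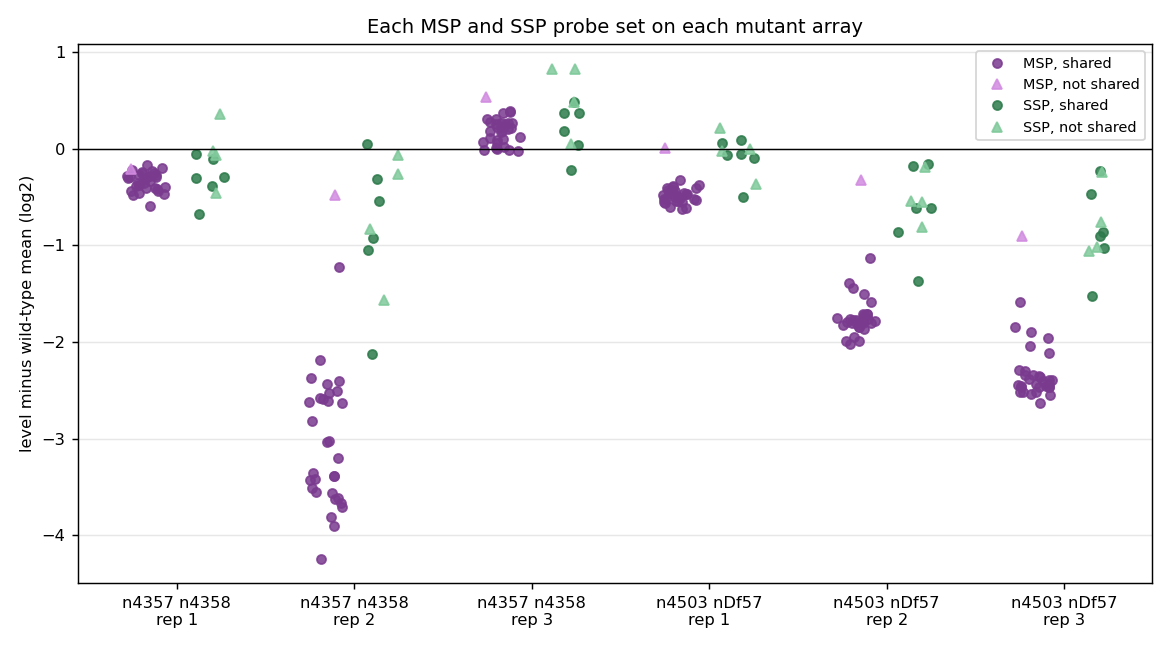
Level of each MSP and SSP probe set on each mutant array minus its mean over the 3 wild-type arrays (log2); circles are shared and triangles unshared probe sets, and sideways position within an array only separates the points. Shared MSP points lie between -4.25 and -1.22 on n4357 n4358 replicate 2, with medians of -0.31 and 0.20 on replicates 1 and 3 of that strain; the unshared msp-32 probe set lies at -0.48 on replicate 2.

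Arrays of the same group differed more for these families than for most probe sets. The median within-group SD was 1.23 log2 for shared MSP probe sets and 0.40 for SSP probe sets, against 0.199 over all probe sets. By group, the median SD of the shared MSP probe sets was 0.58 on wild-type arrays, 1.77 on n4357 n4358 arrays and 0.97 in n4503 nDf57 (n = 3 arrays each). The 31 profiles resembled each other closely, with Pearson r between 0.85 and 0.9997 (median 0.987) over the 465 pairs, each across 9 arrays. Shared probe sets can detect the same transcripts, so these pairs are not independent. Correlations of the SSP probe sets with the mean of all members ran from 0.54 to 0.98.

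In the limma fit of the mean of both mutants minus wild type, 0 of 42 members passed an adjusted p of 0.05 in either direction, as did 0.0% of all probe sets. The members lay mostly on 1 side. As 31 of them are shared MSP probe sets with nearly 1 profile, their counts do not stand for independent results. Differences were below 0 for 41 of 42 members, against 43.5% of all probe sets, with a median of -1.27 log2 (2.41-fold lower), against 0.02 over all probe sets. The shared MSP probe sets lay lower in 31 of 31 cases, from -1.60 for msp-31 to -0.79 for msp-32 (172725_x_at), with a median of -1.34 and standard errors of 0.41 to 0.92. SSP probe sets lay lower in 9 of 10 cases with a median of -0.37, and the 5 unshared members in 4 of 5 cases with a median of -0.23. Adjusted p-values were 0.999 for all 42 members by limma with Benjamini-Hochberg adjustment. At an unadjusted p under 0.05 stood 1 member, ssp-35, against 3.61% of all probe sets. The median over all members shrank to -0.78 without n4357 n4358 replicate 2.

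Both strains lay lower than wild type, and they share the wild-type arrays, so their values are given side by side only. In n4357 n4358 minus wild type, 38 of 42 members were below 0 (45.9% of all probe sets) with a median of -0.96 log2, and -1.14 for the shared MSP probe sets. In that comparison 0 of 42 were called by limma (0.0% of all probe sets), with adjusted p from 0.883 to 0.98 and 0 members at an unadjusted p under 0.05 (3.99% of all probe sets). Its median rested on replicate 2 and became -0.06 without it, with 30 of 42 below 0. In n4503 nDf57 minus wild type, 42 of 42 were below 0 (45.1% of all probe sets) with a median of -1.53 log2 (2.89-fold lower), and -1.56 for the shared MSP probe sets. Here too 0 of 42 were called by limma (0.0%), with adjusted p of 1.0, and 2 members had an unadjusted p under 0.05 (2.83% of all probe sets), namely ssp-35 and msp-32 (172725_x_at). That count depended on the n4357 n4358 arrays, which share the variance estimate of the fit without being part of this comparison. Fitted on wild-type and n4503 nDf57 arrays alone, 33 of 42 members, 31 of them shared MSP probe sets, had an unadjusted p under 0.05 (3.5% of all probe sets), and the same number did without n4357 n4358 replicate 2 (2.81%). The smallest adjusted p of the members by limma was 1.0 in both of these fits. Leaving out single arrays moved this median between -2.05 and -1.09.

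Arrays of n4503 nDf57 and wild type did not overlap for 8 of 42 members, all lower in the mutant, against 2.56% of all probe sets. They were ssp-11/ssp-9 and 7 MSP probe sets of chromosome II, msp-3, msp-33, msp-45, msp-63, msp-64, msp-142 and msp-152, of which msp-3, msp-45, msp-63, msp-64 and msp-142 are named for this count, after their values were seen. All 8 are shared probe sets, and each gap was smaller than the SD within either group. The highest n4503 nDf57 and lowest wild-type values were 8.7693 and 8.7698 for msp-45, the narrowest gap. For msp-142, the widest, they were 7.723 and 7.998. Arrays of n4357 n4358 and wild type were apart for 0 of 42 members, against 4.7% of all probe sets with the mutant lower.

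Between the mutant strains, 42 of 42 members were lower in n4503 nDf57, beside 11264 of all 22548 probe sets, with a median of -0.39 log2. Of these, 0 of 42 were called by limma (0.0% of all probe sets), adjusted p was at least 0.977, and 0 had an unadjusted p under 0.05 (2.47%). The sign of this median turned with a single array. It was 0.13 without n4357 n4358 replicate 3 and -1.41 without n4357 n4358 replicate 2, where 34 of 42 members had an unadjusted p under 0.05 (4.28% of all probe sets; smallest adjusted p 0.81 by limma).

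**Figure D3:**
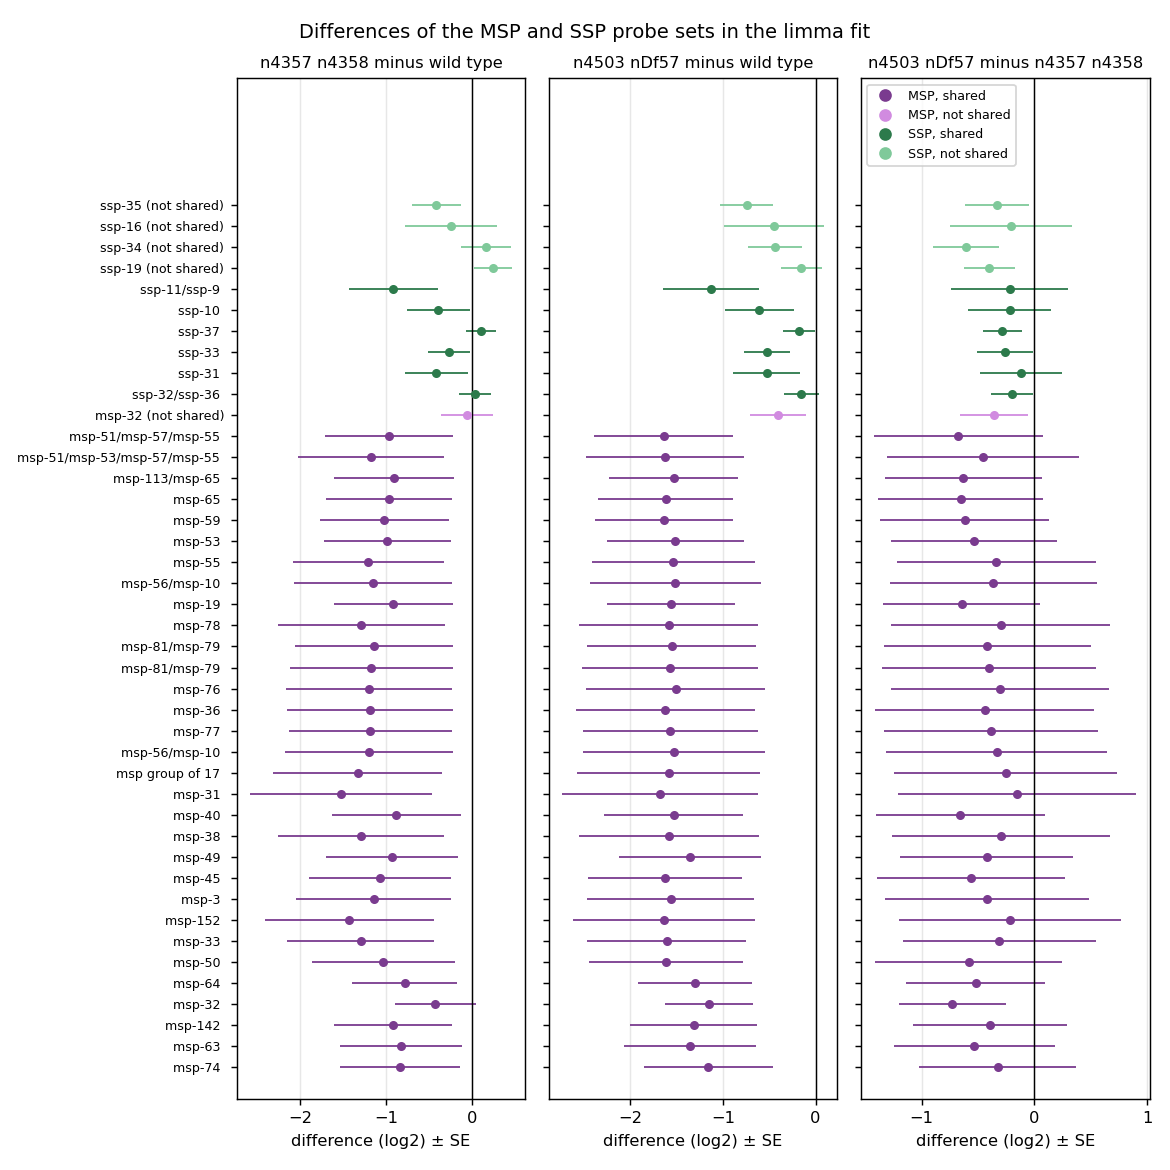
Log2 differences with their standard errors from limma for all 42 MSP and SSP probe sets, each strain minus wild type and n4503 nDf57 minus n4357 n4358, with 3 arrays a group. MSP differences against wild type lie between -1.68 and -0.42 with standard errors of 0.47 to 1.06 (the unshared msp-32 probe set lies nearer 0). SSP differences against wild type lie between -1.13 and 0.25 and overlap that range. Their medians are -0.25 for n4357 n4358 and -0.48 for n4503 nDf57.

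Among the MSP probe sets of chromosome II, msp-31 had the largest range. Values here and below follow replicates 1, 2 and 3 of wild type, then of n4357 n4358, then of n4503 nDf57. msp-31 read 9.79, 10.63 and 9.28 log2 on wild-type arrays, 9.46, 5.65 and 10.01 on n4357 n4358 arrays, and 9.29, 7.90 and 7.47 on n4503 nDf57 arrays. The group means were 9.90 ± 0.68, 8.37 ± 2.37 and 8.22 ± 0.95 (SD, n = 3 each), and the difference of the mutants was -1.60 (SE 0.92; limma adjusted p = 0.999). The single array n4357 n4358 replicate 2 held the lowest value, while replicate 3 of that strain lay within the wild-type range. Its neighbour msp-152 read 8.89, 9.57 and 8.60, then 8.56, 5.11 and 9.12, then 8.56, 7.0 and 6.59, with a difference of -1.53 (SE 0.85). The n4503 nDf57 arrays of msp-152 all lay below wild type, the highest of them by a margin that is small beside the spread within either group.

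The neighbours msp-33 and msp-32 differed more from each other. msp-33 read 8.59, 9.53 and 8.47 on wild-type arrays, 8.27, 5.47 and 8.97 on n4357 n4358 arrays, and 8.24, 7.06 and 6.47 on n4503 nDf57 arrays, a difference of -1.45 (SE 0.74). The shared probe set of msp-32 (172725_x_at) read 8.13, 8.98 and 7.91, then 7.91, 7.12 and 8.72, then 7.92, 6.90 and 6.75, a difference of -0.79 (SE 0.41). On n4357 n4358 replicate 2 it stood at -1.22 from the wild-type mean, the smallest difference among the shared MSP probe sets on that array. Its difference in n4503 nDf57 was -1.15 (SE 0.47; unadjusted p = 0.0395, limma adjusted p = 1.0). The unshared probe set of msp-32 (189621_at) had its lowest value in each group on the same array as the shared one, with 5.22, 5.52 and 5.06 on wild-type arrays, 5.06, 4.79 and 5.80 on n4357 n4358 arrays, and 5.27, 4.94 and 4.37 on n4503 nDf57 arrays. Its difference was -0.23 (SE 0.26), and its groups overlapped. msp-74, the last of the chromosome II probe sets named by the rule, read 7.50, 7.86 and 7.1, then 7.1, 4.98 and 7.88, then 7.1, 6.36 and 5.53, a difference of -1.0 (SE 0.60).

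The MSP probe sets of chromosome IV had the same low arrays. The probe set naming msp-51, msp-53, msp-55 and msp-57 read 10.78, 11.35 and 10.05 on wild-type arrays, 10.43, 7.52 and 10.72 on n4357 n4358 arrays, and 10.18, 8.86 and 8.26 on n4503 nDf57 arrays. A second one naming msp-51, msp-55 and msp-57 read 10.79, 11.45 and 10.05, then 10.46, 8.16 and 10.78, then 10.15, 8.97 and 8.25. Their differences were -1.40 (SE 0.74) and -1.30 (SE 0.65), and since they share 3 genes they are not separate evidence. In both, n4503 nDf57 replicate 1 stood inside the wild-type range and replicates 2 and 3 below it.

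msp-19 read 10.20, 10.86 and 9.60 on wild-type arrays, 9.87, 7.82 and 10.24 on n4357 n4358 arrays, and 9.70, 8.41 and 7.88 on n4503 nDf57 arrays. Its unadjusted p of 0.0719 was the lowest among the MSP probe sets for the mean of both mutants, with a difference of -1.23 (SE 0.60) and a limma adjusted p of 0.999. msp-59 read 10.43, 11.01 and 9.63, then 9.95, 7.73 and 10.34, then 9.80, 8.55 and 7.81, a difference of -1.33 (SE 0.65). Both genes showed the split of the mutant arrays described above. msp-65 read 10.59, 11.16 and 9.82, then 10.11, 7.99 and 10.58, then 9.98, 8.67 and 8.05, a difference of -1.29 (SE 0.63). The probe set naming msp-113 and msp-65 read 10.49, 11.19 and 9.76, then 10.15, 8.11 and 10.48, then 9.95, 8.76 and 8.13, a difference of -1.22 (SE 0.60). These last probe sets have msp-65 in common and matched in the order of all their low arrays.

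By chromosome, the 13 shared probe sets of chromosome II had a median of -2.81 against the wild-type mean on n4357 n4358 replicate 2, and the 17 of chromosome IV had -3.39. On n4503 nDf57 replicate 3 the medians were -2.30 and -2.47, and on n4503 nDf57 replicate 2 they were -1.80 and -1.78. Genes of both chromosomes were thus low on the same arrays. On n4503 nDf57 replicate 1, 7 of 13 chromosome II probe sets but 0 of 17 chromosome IV probe sets lay below all wild-type arrays, a difference that was not tested. Pairs of probe sets with the same annotation matched closely where both were shared: msp-56/msp-10 gave -1.33 and -1.36, and msp-81/msp-79 gave -1.37 and -1.34. For msp-32 the shared and unshared probe sets differed by up to 0.764 in their deviation from their own means, on wild-type replicate 2.

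The SSP probe sets varied less, and single members departed from the MSP order. Their median levels, given above, were lower than those of the shared MSP probe sets on every array. RMA compresses low levels, and whether this plays a part in the smaller steps was not tested. ssp-11/ssp-9 had the largest difference among the SSP probe sets, with 7.1, 7.55 and 6.62 on wild-type arrays, 6.71, 4.97 and 6.87 on n4357 n4358 arrays, and 6.59, 5.73 and 5.57 on n4503 nDf57 arrays. Its difference was -1.02 (SE 0.45; unadjusted p = 0.0502, limma adjusted p = 0.999), and its n4503 nDf57 arrays all lay below wild type. ssp-10 read 5.74, 5.98 and 5.40, then 5.40, 4.66 and 5.90, then 5.77, 4.85 and 4.69, a difference of -0.50 (SE 0.32). ssp-16, an unshared probe set, read 7.01, 7.07 and 6.51 on wild-type arrays, 7.22, 5.30 and 7.35 on n4357 n4358 arrays, and 7.08, 6.32 and 5.85 on n4503 nDf57 arrays, a difference of -0.34 (SE 0.47). In ssp-16 the mutant arrays that were not low all exceeded the 3 wild-type values, so the groups overlapped.

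ssp-35, also unshared, had the smallest p of all 42 members. It read 6.62, 7.32 and 7.25 on wild-type arrays, 6.60, 6.24 and 7.11 on n4357 n4358 arrays, and 6.70, 6.25 and 6.0 on n4503 nDf57 arrays. Its difference was -0.58 (SE 0.25; unadjusted p = 0.045, limma adjusted p = 0.999), and -0.74 (SE 0.28; unadjusted p = 0.0293, adjusted p = 1.0) in n4503 nDf57 alone. Wild-type replicate 1 lay inside the range of the mutants, so the groups overlapped. ssp-33 read 4.86, 5.49 and 5.25, then 4.91, 4.66 and 5.24, then 5.10, 4.59 and 4.34, a difference of -0.39 (SE 0.21). ssp-31 read 4.59, 5.30 and 5.08, then 4.31, 4.07 and 5.36, then 4.93, 4.38 and 4.09, a difference of -0.47 (SE 0.31). In both, wild-type replicate 1 was the lowest wild-type array, whereas for all 31 shared MSP probe sets it was replicate 3.

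The remaining SSP probe sets had differences close to 0. Those of ssp-34, ssp-19 and ssp-32/ssp-36 had 9-array means of 4.75, 4.44 and 4.39, under the lowest array median of 4.76. At such low levels a difference may be compressed. ssp-34 read 4.81, 4.94 and 4.78 on wild-type arrays, 4.78, 4.58 and 5.67 on n4357 n4358 arrays, and 4.84, 4.29 and 4.09 on n4503 nDf57 arrays. ssp-19, whose protein has an MSP-like fold, read 4.39, 4.49 and 4.36, then 4.39, 4.34 and 5.24, then 4.39, 4.22 and 4.17. In these, n4357 n4358 replicate 3 stood above every other array. ssp-37 read 5.33, 5.54 and 5.33, then 5.30, 5.46 and 5.77, then 5.50, 5.25 and 4.93, and was the only member for which n4357 n4358 replicate 2 was not below all wild-type arrays. ssp-32/ssp-36 read 4.38, 4.52 and 4.37, then 4.37, 4.11 and 4.91, then 4.37, 4.25 and 4.19. Their differences were -0.13 (SE 0.25) for ssp-34, 0.05 (SE 0.19) for ssp-19, -0.03 (SE 0.15) for ssp-37 and -0.06 (SE 0.16) for ssp-32/ssp-36. The signs for ssp-19, ssp-37 and ssp-32/ssp-36 turned when single arrays were left out.

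Within each group, the array with the highest MSP and SSP levels was the one with the lowest moulting mean. In 42 of 42 members replicate 2 was the highest wild-type array, replicate 3 the highest of n4357 n4358 and replicate 1 the highest of n4503 nDf57; this held for 16.5% of all probe sets, for 7 of 8 vitellogenin probe sets and for 16 of 24 probe sets of other proteins made in quantity by sperm. Of the low mutant arrays, n4357 n4358 replicate 2 had a moulting mean of 0.13. The means of n4503 nDf57 replicates 2 and 3 were 0.27 and 0.19, beside 0.24 and 0.19 on wild-type replicates 1 and 3. Whether the stage of the animals plays a part in the MSP levels was not tested. With the moulting mean as a covariate the median difference of both mutants was -1.39 with 41 of 42 below 0, and 22 members had an unadjusted p under 0.05 (6.83% of all probe sets; smallest adjusted p 0.593). Among the 6 arrays with a moulting mean above 0, 2 in each group, the median was -1.47 with 42 of 42 below 0, and 10 members had an unadjusted p under 0.05 (4.53% of all probe sets; smallest adjusted p 0.977). That last choice of arrays was made after the data were seen. It left out the array of each group on which all 42 members were highest, so its median is no test of stage. Under both settings 0 of 42 members were called.

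Vitellogenins, which carry yolk from the intestine to oocytes, mostly shared the highest array of each group with the MSP genes but not the order of the other arrays. The mean deviation of their 8 probe sets (5 of 6 genes) was -0.63, 1.43 and 0.83 on wild-type arrays, -0.71, -0.31 and 0.17 on n4357 n4358 arrays, and 0.64, -0.73 and -0.68 on n4503 nDf57 arrays. Wild-type replicate 1 and n4357 n4358 replicate 1 were low for yolk genes and not for MSP genes, whose deviations there were 0.83 and 0.53. The median yolk difference was -0.55, with 7 of 8 below 0 (43.5% of all probe sets) and 0 called by limma (0.0%); vit-4 read 4.90, 7.87 and 7.05, then 4.29, 5.01 and 5.61, then 6.06, 4.53 and 4.48, a difference of -1.61 (SE 0.66; unadjusted p = 0.0391, adjusted p = 0.999). Their part in the MSP result was not tested.

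**Figure D4:**
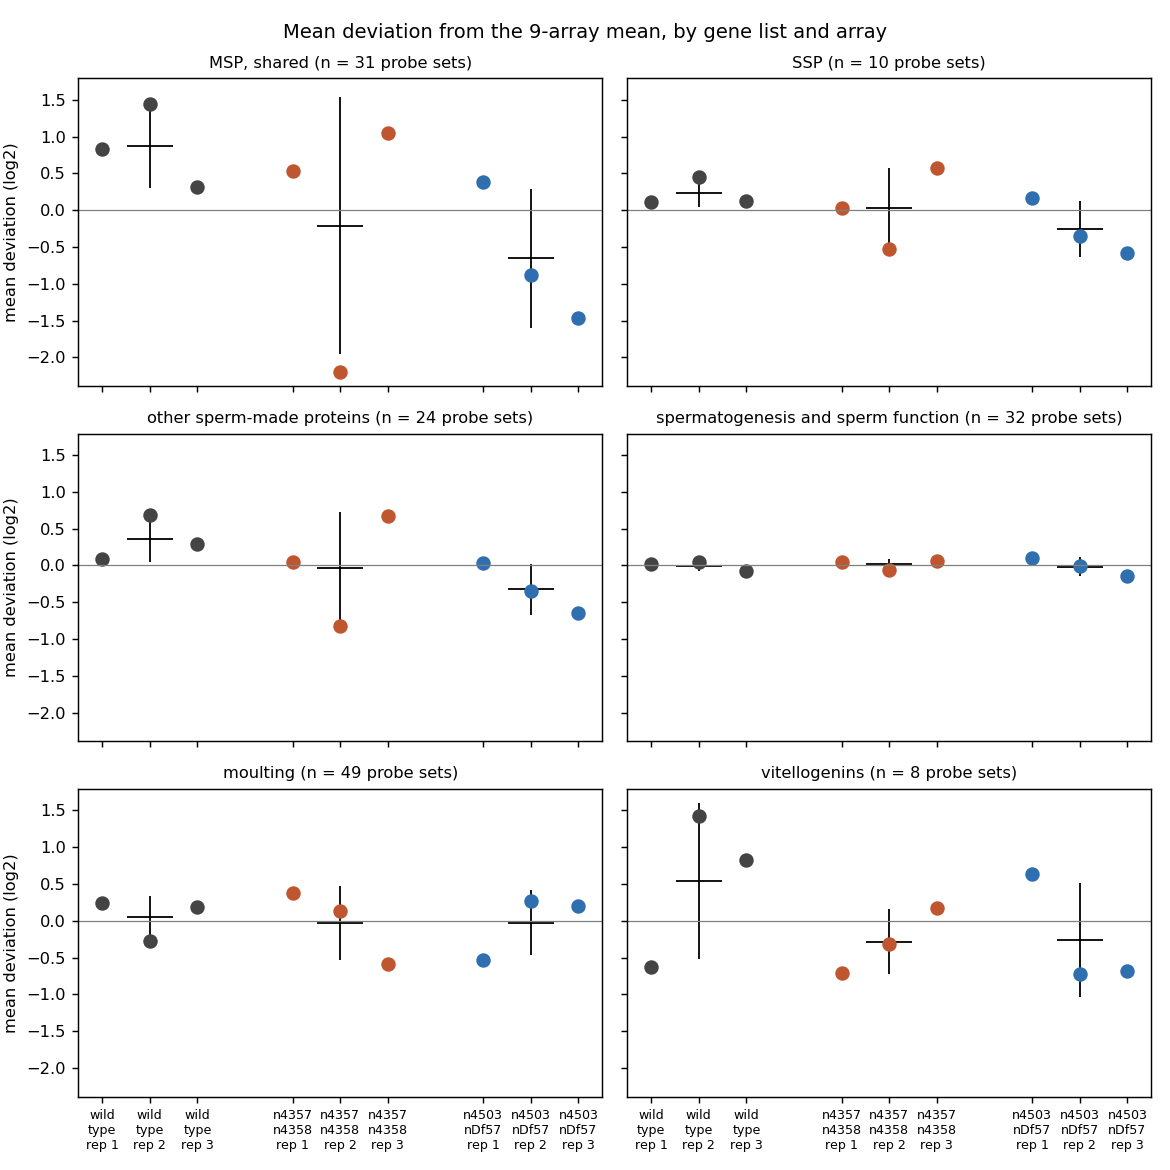
Mean deviation from the 9-array mean (log2) for the MSP and SSP probe sets and for 4 gene lists on each array; points are arrays, and black bars and lines are the mean and SD of 3 arrays. Other sperm-made proteins are lowest on the mutant arrays where MSP is lowest, with -0.82 on n4357 n4358 replicate 2 and -0.65 on n4503 nDf57 replicate 3. The spermatogenesis list stays between -0.15 and 0.11 on all 9 arrays. Some of its probe sets read at low levels, which RMA compresses.

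Other proteins that sperm make in quantity were low on the same mutant arrays as the MSP genes. This list, with partners of MSP, sperm phosphatases and sperm chromatin proteins, had 24 probe sets for 20 of its 31 genes. Its mean deviation was 0.08, 0.68 and 0.30 on wild-type arrays, 0.05, -0.82 and 0.68 on n4357 n4358 arrays, and 0.04, -0.35 and -0.65 on n4503 nDf57 arrays. The differences were below 0 for 18 of 24 probe sets (43.5% of all probe sets) with a median of -0.38, 0 were called by limma (0.0%), and 7 had an unadjusted p under 0.05 (3.61%). Of the 24 probe sets 14 are shared, and among the 7 only that of htas-1 is not. The 7 include nspd-1, nspd-2, nspd-4 and nspd-7, so they do not stand for independent results. The smallest p belonged to htas-1, a histone H2A of sperm, with 4.27, 5.44 and 4.55, then 4.03, 3.85 and 3.83, then 3.95, 4.03 and 3.87, a difference of -0.83 (SE 0.23; unadjusted p = 0.00598, adjusted p = 0.999). All 6 mutant arrays of htas-1 lay below the 3 wild-type arrays, which held for 181 of all 22548 probe sets and for 0 of the 42 MSP and SSP members. These mutant values lay close to 3.90, the mean level under which probe sets were dropped in an alternative fit. RMA compresses such low levels, so whether htas-1 shared the split of the MSP genes cannot be decided. Some further members are given as examples chosen after their values were seen. msd-4, which encodes an MSP-domain protein, read 7.29, 8.69 and 8.32, then 7.23, 5.15 and 8.08, then 7.07, 6.67 and 5.83, a difference of -1.43 (SE 0.62). The sperm phosphatase gsp-3, needed for sperm motility, read 6.31, 6.31 and 5.50, then 6.45, 4.8 and 6.51, then 6.11, 5.31 and 4.72, a difference of -0.39 (SE 0.45). Both were lowest on arrays where MSP genes were low.

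Genes acting in spermatogenesis and sperm function as regulators, membrane proteins or enzymes did not follow the MSP profile as a list. Their 32 probe sets (31 of 41 genes) had mean deviations of 0.02, 0.05 and -0.08, then 0.04, -0.06 and 0.07, then 0.11, -0.00 and -0.15, and a median difference of 0.03 with 15 of 32 below 0, beside the same 43.5%. By limma 0 were called (0.0%), and 4 had an unadjusted p under 0.05 (3.61% of all probe sets). The smallest was spe-10, which encodes a palmitoyltransferase of sperm organelles, at 4.32, 4.62 and 4.40, then 4.18, 4.25 and 4.25, then 4.25, 4.02 and 4.03, a difference of -0.28 (SE 0.10; unadjusted p = 0.019, adjusted p = 0.999). fog-3, which directs germ cells to become sperm, and spe-44, a transcription factor of spermatocytes, were examined after their values were seen. fog-3 read 6.14, 5.45 and 4.81 on wild-type arrays, 6.85, 6.55 and 5.29 on n4357 n4358 arrays, and 6.63, 6.22 and 5.91 on n4503 nDf57 arrays, a difference of 0.77 (SE 0.39). spe-44 read 4.85, 4.50 and 3.99, then 5.16, 4.20 and 4.18, then 4.93, 4.82 and 4.30, a difference of 0.15 (SE 0.28). On n4357 n4358 replicate 2, where the MSP genes were lowest, fog-3 was above all wild-type arrays and spe-44 was inside their range. Another gene, spe-46, had the lowest difference of the list, at -0.91 (SE 0.33). It read 4.64 on that array, against 5.88 to 6.79 on wild-type arrays. Some probe sets of the list, such as those of spe-36, spe-38 and snf-10, read under 3.90 on all 9 arrays. RMA compresses such levels, so the mean of the list may understate a drop. On n4357 n4358 replicate 2, 17 of the 32 lay below their own 9-array means. On n4503 nDf57 replicates 2 and 3 these counts were 22 and 29.

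The genes that receive the MSP signal in oocytes and sheath cells differed little. Their 54 probe sets (27 of 29 genes) had a median difference of -0.01 with 29 below 0, 0 called by limma and 0 at an unadjusted p under 0.05, against 43.5%, 0.0% and 3.61% of all probe sets. vab-1, the Eph receptor that binds MSP, read 3.86, 3.41 and 3.48, then 4.03, 3.82 and 3.39, then 3.64, 3.81 and 3.65 on one of its probe sets, a difference of 0.14 (SE 0.16); vab-1 was named for its role. The smallest p was that of gsa-1, the stimulatory G protein of the sheath, at 0.18 (SE 0.10; unadjusted p = 0.0999, adjusted p = 0.999). Oocyte and eggshell genes had 44 probe sets (26 of 28 genes), a median of 0.00, 22 below 0 and 0 called, with 1 at an unadjusted p under 0.05, beside the same shares. That was mex-6, a regulator of maternal proteins, at 0.25 (SE 0.10; unadjusted p = 0.0306, adjusted p = 0.999).

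Among 14958 unshared probe sets naming 1 gene and outside both families, the 10 most like the mean MSP and SSP profile had Pearson r from 0.937 to 0.979 over the 9 arrays. They were T27A3.5, smz-1, Y38C1AA.7, F17E9.5, nsph-3.1, his-70, spsp-1, T27E7.1, cdh-5 and F35G2.1. T27A3.5, at r = 0.979, read 5.16, 5.41 and 5.15, then 5.22, 4.24 and 5.27, then 4.97, 4.55 and 4.26. smz-1, at r = 0.968, encodes a PDZ protein of sperm meiosis and read 6.28, 6.70 and 6.31, then 6.38, 5.16 and 6.61, then 6.56, 5.94 and 5.48. These unshared probe sets had the same low arrays as the MSP genes. The differences of the 10 between both mutants and wild type lay between -0.66 and -0.19. They were selected for this likeness, which is given as a description.

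**Figure D5:**
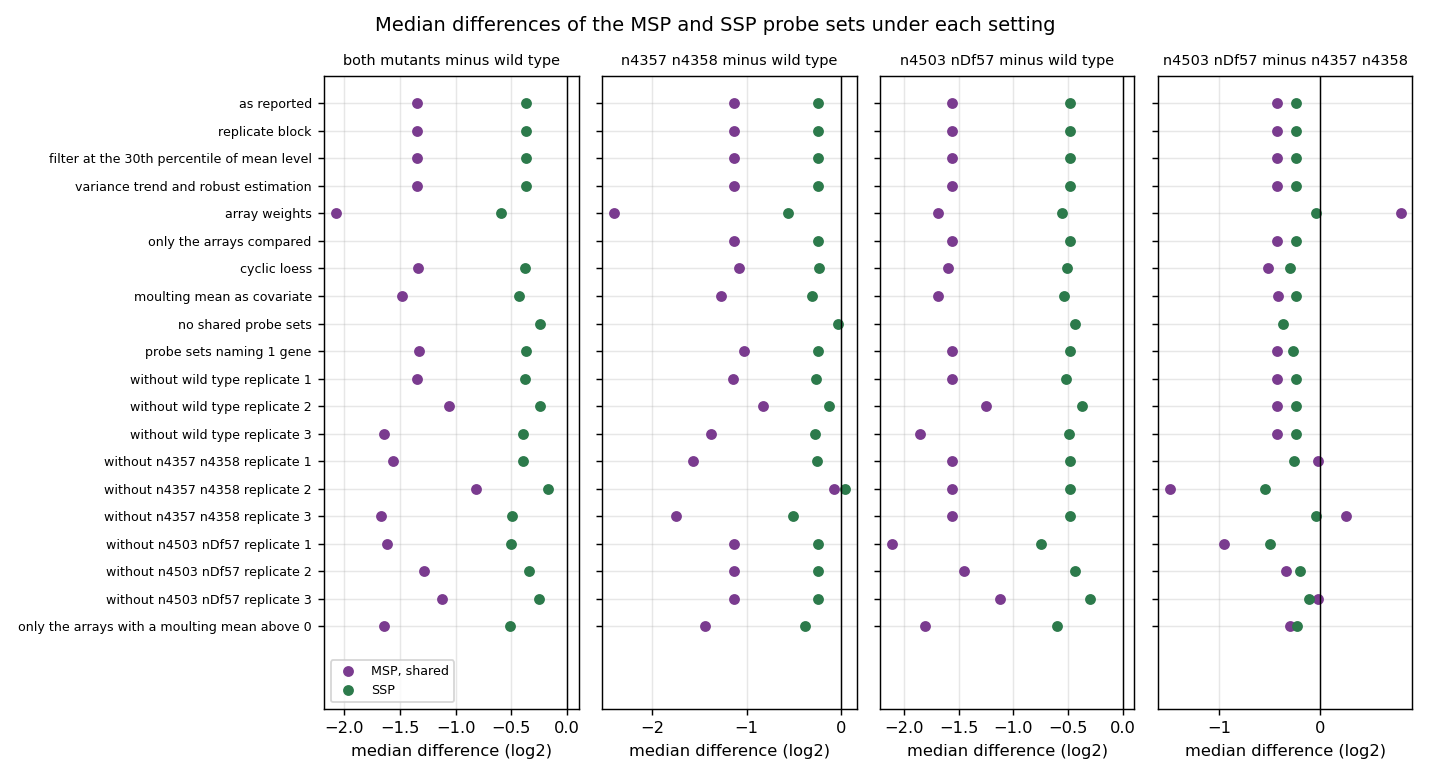
Median log2 difference of the shared MSP and of the SSP probe sets for each comparison under each setting of the fit; without shared probe sets no shared MSP value exists and 4 SSP probe sets remain. The shared MSP medians against wild type stay below 0 under all settings, reaching -0.08 for n4357 n4358 without its replicate 2, while the difference between the strains takes both signs.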

How the data were processed

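Each value is a log2 level of 1 probe set, which the authors computed by RMA and deposited in 1 table of 9 arrays; RMA and limma are named in the submitters' processing notes, with no version stated in the sources used here. RNA came from pelleted young adults and was labelled by 3' in vitro transcription, per the labels' protocols. RMA corrects background, equalises array distributions and compresses low levels, and the number of arrays limits the precision.

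Members were found by symbol in the platform annotation, and 77 control probe sets were left out. All 9 arrays entered 1 limma fit (limma 3.58.1 and statmod 1.5.0 under R 4.3.3), 1 mean for each group, 6 residual and 2.38 prior degrees of freedom, and Benjamini-Hochberg adjustment over 22548 probe sets at a threshold of 0.05. Groups came from titles and genotypes. The fit was tested on simulated data. Summaries and figures used Python 3.11.15, pandas 2.3.3, numpy 2.4.6 and matplotlib 3.10.9.

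The members and gene lists were chosen with earlier results of these data known. Values on every array are given for unshared members and, within each family of shared ones, those with the 3 highest means and the lowest mean, the smallest p-values (3 for the mean of both mutants, 2 for each other contrast) and the largest and smallest range. Each list gives the member with the smallest p. Alternatives were array weights, cyclic loess, a replicate block, a robust fit with a variance trend, dropping probe sets with mean levels under the 30th percentile, fitting the compared groups alone, a moulting covariate, no shared probe sets, probe sets naming 1 gene, and leaving out each array; the fit of 6 arrays was added after seeing the data. Coordinates, probe positions and sequences were not used here.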

Additional observations from a re-analysis of the deposited data

How the results depend on the processing

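Under every setting tried 0 members were called by limma in each of the 4 comparisons, while medians, counts below 0 and p-values moved. Medians against wild type over all members and over the shared MSP probe sets stayed below 0 under every setting that kept them. Those of smaller sets did not: in n4357 n4358 the SSP median was 0.037 without replicate 2 of that strain, and the median of the 5 unshared members was 0.38 there, 0.03 without replicate 1 and 0.075 without wild-type replicate 2. For the mean of both mutants, single arrays left out gave medians from -1.57 to -0.78. For n4357 n4358 they gave -1.49 to -0.06, and for n4503 nDf57 they gave -2.05 to -1.09. The difference between the strains ranged from -1.41 to 0.13, turning sign without n4357 n4358 replicate 3, and was 0.43 with array weights, which gave that array 0.148 and n4357 n4358 replicate 2 a weight of 3.35. Array weights gave a median of -1.82 for both mutants, with 37 of 42 members at an unadjusted p under 0.05 (10.6% of all probe sets) and a smallest adjusted p of 0.232. They gave -1.97 for n4357 n4358, with 37 of 42 (10.7%) and 0.297, and -1.65 for n4503 nDf57, with 36 of 42 (14.6%) and 0.117. Without shared probe sets 5 members were left, and the median in n4503 nDf57 was -0.43, since the MSP probe sets are nearly all shared. Among single members, ssp-37 ranged from -0.10 to 0.039 with single arrays left out and turned to 0.037 without wild-type replicate 2, 0.017 without n4357 n4358 replicate 1 and 0.039 without n4503 nDf57 replicate 3. ssp-32/ssp-36 ranged from -0.17 to 0.032, turning without n4357 n4358 replicate 2. ssp-19 ranged from -0.099 without n4357 n4358 replicate 3 to 0.13 without replicate 2 of that strain, and was -0.094 with array weights and -0.093 in the 6 arrays with a moulting mean above 0. The cause of these changes was not tested. With the replicate block the median stayed at -1.27, 0 members were called and the smallest adjusted p was 1.0. Same-numbered arrays had deviations correlated from -0.60 to 0.40, over 0.1 in 3 of 9 pairs. The labels name no pairing by replicate number. These correlations cannot decide whether same-numbered arrays were handled together, since other differences between arrays enter them.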

Other observations

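Males also make sperm, so genes that mark neurons and glands of males were read on the same arrays. Their 16 probe sets (16 of 16 genes) had mean deviations of -0.07, 0.03 and -0.09 on wild-type arrays, -0.04, 0.01 and 0.24 on n4357 n4358 arrays, and 0.04, -0.05 and -0.07 on n4503 nDf57 arrays. Their median difference was 0.06, 4 of 16 lay below 0 and 0 were called by limma, with 0 at an unadjusted p under 0.05, against 43.5%, 0.0% and 3.61% of all probe sets. The smallest p was that of cwp-4, a gene of male-specific neurons, at 0.15 (SE 0.10; limma adjusted p = 0.999). The array n4357 n4358 replicate 3 had the highest male-specific mean and, among the mutant arrays, the highest MSP mean, at 1.04.

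Body-wall and pharyngeal muscle genes had 31 probe sets (17 of 17 genes), 23 of them shared. Of the 31, 29 lay above 0 in the mutants, beside 12729 of all 22548 probe sets. Their median was 0.27, and 0 were called by limma (0.0% of all probe sets). Their mean deviations were 0.14, -0.39 and -0.27 on wild-type arrays, 0.16, 0.13 and 0.06 on n4357 n4358 arrays, and 0.08, 0.05 and 0.04 on n4503 nDf57 arrays. Wild-type replicates 2 and 3 were low and replicate 1 was not, an order that differs from that of the MSP genes. tni-3, a troponin I, read 5.38, 4.85 and 4.97, then 6.01, 5.53 and 5.90, then 6.01, 5.51 and 5.48, a difference of 0.67 (SE 0.18; unadjusted p = 0.00488, limma adjusted p = 0.999). All 6 mutant arrays of tni-3, read on a shared probe set, lay above the wild-type arrays, which held for 237 of all 22548 probe sets. At an unadjusted p under 0.05 stood 5 of the 31 probe sets (3.61% of all probe sets).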
